A study of Mus musculus with 6 samples.

Results

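The regions described here are 692 places in the genome of mouse embryonic fibroblasts (MEFs) where a peak of histone H3 trimethylated at lysine 4 (H3K4me3) was at least 1.5 times as wide in cells treated with the chemical combination 6TCF as in untreated cells. Each region is a couple of peaks, 1 from the treated and 1 from the untreated H3K4me3 list, in which each overlaps the other and nothing else in the opposite list. Pairs on the mitochondrial genome were left out, as were pairs in which either peak overlapped a listed peak of H3K27me3 or of input DNA in either condition. Of 16153 such pairs 812 were widened (5.03%), and of the 15469 kept after these steps 692 were (4.47%). The regions were chosen by the widths measured in the 2 H3K4me3 libraries, so the size and direction of the change are a description and carry no test.

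Chromatin immunoprecipitation and sequencing was done on C57BL/6 MEFs, primary connective-tissue cells grown from embryos, that had either received 6TCF for 6 days or were the untreated control sampled on day 6. The culture text names a medium with serum and basic fibroblast growth factor for these cells and does not say separately what the untreated cells were kept in. It gives neither the stage or number of the embryos nor the compounds behind the name 6TCF. Each condition had 1 library titled H3K4me3, 1 titled H3K27me3 and 1 of input DNA, which makes 6 libraries with 1 per group. No difference between conditions therefore has a replicate check, and no p-value is given. The antibody field names H3K4me2 for the libraries titled H3K4me3 and H3K4me1 for those titled H3K27me3. The titles are followed here, and which antibody was used is unsettled.

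H3K4me3 is laid down mainly by the SET1 and MLL methyltransferase complexes at CpG-rich promoters and is removed by KDM5 demethylases. It usually sits on the nucleosomes beside a transcription start, and at some genes it spreads from there into the transcribed part, which gives a broad peak. Broad peaks are known from genes tied to the identity of a cell type. H3K27me3, the mark of Polycomb repression, can share promoters with H3K4me3, and the regions here are those where no such peak was listed.

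The lists held 18185 treated and 17168 untreated H3K4me3 peaks, 821 and 1242 H3K27me3 peaks, and 604 and 740 input peaks. Each row is a position in the mouse build mm9, with no height, score or read number, so depth is unknown and the width of a peak in bp, the number of positions it covers, is all that could be measured. Both the presence and the width of a peak can depend on depth, antibody yield and calling threshold, and the part of these in any region was not tested. The annotation at hand is of another build, so no region is given a gene, exon, promoter or sequence, and the fibroblast markers could not be looked up.

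Widened peaks were mostly narrow before the comparison. Untreated widths of the 692 regions ran from 381 to 5257 bp with a median of 1132 bp, against a median of 2212 bp over all 15469 pairs. Treated widths ran from 727 to 8128 bp with a median of 2139 bp, close to the 2165 bp of all pairs. Only the medians were alike: the treated widths of the regions were more spread, with quartiles of 1317 and 3702 bp against 1537 and 2945 bp. Of the 692 regions, 303 (43.8%, 95% Wilson interval 40.1 to 47.5) had an untreated peak of up to 1000 bp, against 10.5% of all pairs. Only 48 (6.94%) started from a peak of over 3000 bp, against 26.4% of all pairs. Selecting for a low untreated and a high treated width favours such pairs, so this describes the rule as much as the cells.

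The 692 regions covered 1.00 Mb in untreated and 1.84 Mb in treated cells, a difference of 0.839 Mb. The median region gained 944 bp, with quartiles of 531.75 and 1644.25 bp, and gains ran from 270 to 5544 bp. In 218 regions (31.5%, 28.2 to 35.1) the gain was under 600 bp, the average length to which the chromatin was sheared. In 112 regions (16.2%) it was over 2000 bp. The median width ratio was 1.71. It reached 2 in 146 regions, 3 in 26 and 4 in 10. Over all pairs kept, the middle 90% of ratios lay between 0.741 and 1.47, the median was 0.982, and the treated peak was the wider one in 45.3% of them. The widened regions are the upper tail, cut by the threshold, of a distribution whose centre is slightly below equal width. The total over all pairs kept fell by 0.572 Mb, from 37.4 Mb untreated to 36.8 Mb treated.

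**Figure D1:**
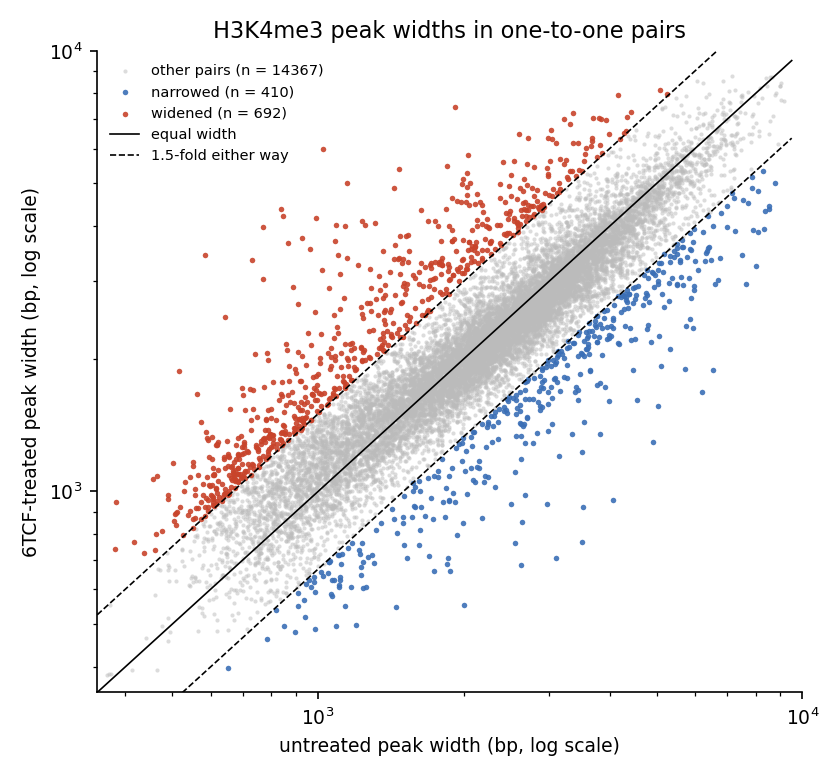
Width of the treated peak (vertical, bp, log scale) against width of the untreated peak (horizontal, bp, log scale) in the 15469 pairs, 1 point per pair, with lines at equal width and at a 1.5-fold difference either way. The 692 widened pairs lie above the upper dashed line, most densely where the untreated peak was narrow, and the 410 narrowed pairs lie below the lower one.

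The mirror class shows how much the widths of these 2 lists differ in the other direction. Narrowed pairs, with an untreated peak at least 1.5 times as wide as the treated one, numbered 410 of 15469 (2.65%). At a 2-fold difference there were 146 widened (0.944%) and 83 narrowed (0.537%) pairs. The width difference was under 600 bp in 56 narrowed pairs (13.7%, 10.7 to 17.3), against 31.5% of widened ones. It was over 2000 bp in 100 narrowed pairs (24.4%, 20.5 to 28.8), against 16.2% of widened ones. As a difference in shares, the surplus of widened pairs was largest at a mean width of over 750 to 1000 bp, not in the narrowest class. Among 293 pairs with a mean width of up to 750 bp, 26 were widened (8.87%, 6.13 to 12.7) and 9 narrowed (3.07%, 1.62 to 5.73). Among 1041 pairs with a mean width of over 750 to 1000 bp, 129 were widened (12.4%, 10.5 to 14.5) and 42 narrowed (4.03%, 2.999 to 5.409). Among 2413 pairs of over 1000 to 1500 bp, 159 were widened (6.59%, 5.67 to 7.65) and 46 narrowed (1.91%, 1.43 to 2.53). Sorting by the mean of both widths treats the conditions alike, so the choice of the narrower peak does not enter. The surplus was smaller in wider classes and ended above 3000 bp. Among 2783 pairs of over 1500 to 2000 bp, 83 were widened (2.98%, 2.41 to 3.68) and 53 narrowed (1.90%, 1.46 to 2.48). Among 5040 pairs of over 2000 to 3000 bp, 145 were widened (2.88%, 2.45 to 3.38) and 110 narrowed (2.18%, 1.81 to 2.62). Above 3000 bp there were 150 of each among 3899 pairs (3.85%, 3.29 to 4.50). With pairs limited to those in which both peaks were at least 1000 bp wide, 390 were widened and 313 narrowed. The median gain was then 1502 bp and the median untreated width 1844 bp.

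**Figure D2:**
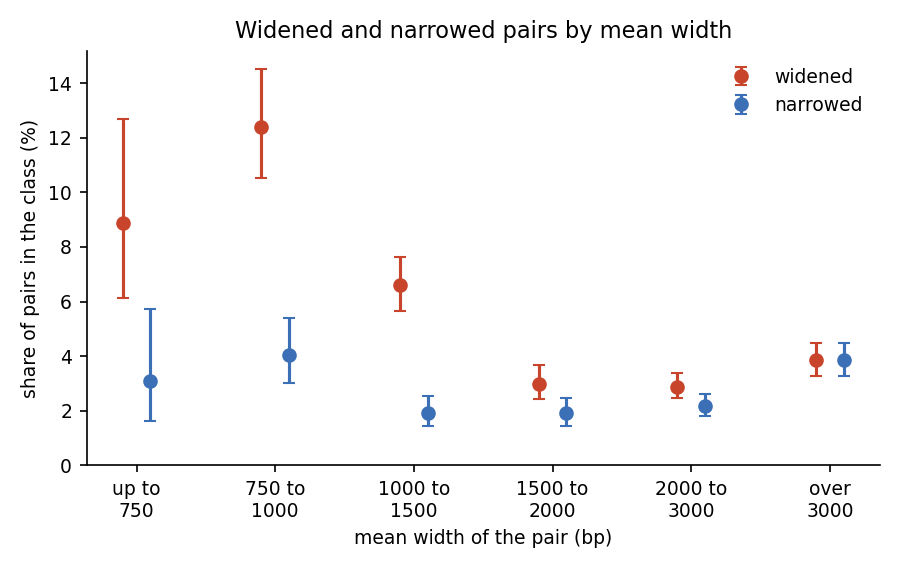
Share of pairs that were widened or narrowed at least 1.5-fold (vertical, %) in 6 classes of the pair's mean width (horizontal, bp). Points are shares and bars are 95% Wilson intervals over pairs. Widened pairs are more frequent than narrowed ones in the classes up to 1500 bp, and both stand at 3.85% above 3000 bp.

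In most regions the treated peak enclosed the untreated one. This held for 596 of 692 regions (86.1%, 83.4 to 88.5), and the untreated peak of a narrowed pair enclosed the treated one in 327 of 410 (79.8%, 75.6 to 83.4). In the other 96 widened regions 1 edge lay further in after treatment, by a median of 56.5 bp and at most 496 bp. Both peaks of a pair had to overlap and to differ at least 1.5-fold in width. This favours enclosure, so the shares are a description.

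The gain was often unequal between the 2 edges. The edge that moved out more did so by a median of 768 bp, and the other edge by 159.5 bp. In 365 regions (52.7%, 49.0 to 56.4) at least 80% of the outward shift lay at 1 edge. This was less frequent than in narrowed pairs, where 291 of 410 (71.0%, 66.4 to 75.2) had retracted mostly at 1 edge. In the widened regions the edge that moved out more followed no direction of the chromosome. The larger shift was at the lower-coordinate edge in 351 of 692 regions (50.7%, 47.0 to 54.4). The orientation relative to genes is not known without an annotation of this build.

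The balance between the edges differed with the width of the untreated peak. By the rule a wide peak needs a larger gain to reach the ratio, but the rule sets no split of that gain between the edges. Among the 303 regions with an untreated width of up to 1000 bp, 86 (28.4%, 23.6 to 33.7) were extended mostly at 1 edge, with a median shift of 355 bp at the larger and 166 bp at the smaller edge. Among the 224 regions of over 1000 to 2000 bp, 136 (60.7%, 54.2 to 66.9) were, with 975 and 181.5 bp. Among the 165 regions of over 2000 bp, 143 (86.7%, 80.6 to 91.0) were, with 1786 and 102 bp. In the median, narrow peaks thus grew by well under the shear length at both ends. In wide peaks the median smaller shift was also under the shear length and the larger one well over it. The narrowed pairs had the same order, with 46.4%, 71.2% and 84.5% retracted mostly at 1 edge in the same classes of the narrower peak. The lower share of widened regions given above thus held up to 2000 bp and not in the widest class. In the middle class the intervals overlapped (63.2 to 78.1 for narrowed pairs). The larger shifts follow at least in part from the ratio that was required. Whether the higher shares above the 80% limit do was not tested, and no more is read from the order of the classes.

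**Figure D3:**
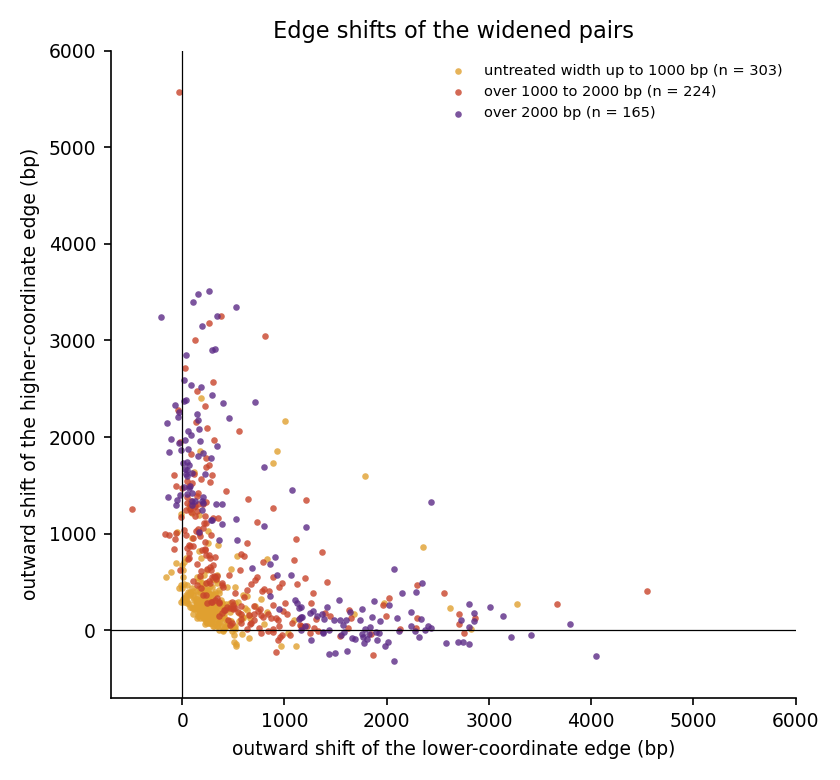
Outward shift of the higher-coordinate edge (vertical, bp) against that of the lower-coordinate edge (horizontal, bp) from untreated to treated, 1 point per widened region, coloured by untreated width. Most regions of over 2000 bp lie near an axis, where mainly 1 edge moved, and some lie between the axes. Most of those of up to 1000 bp lie near the origin between the axes.

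The 10 regions with the largest ratio started from untreated peaks of 583 to 1150 bp and ended between 3348 and 5972 bp. The largest ratio, 5.89, was at chromosome 9, 62991756 to 62995187, where the treated peak was 3432 bp and the untreated one 583 bp. Its lower edge lay 2614 bp and its upper edge 235 bp further out. At chromosome 4, 82692840 to 82698811, widths of 5972 and 1023 bp gave a ratio of 5.84, with shifts of 4545 bp below and 404 bp above. In both of these regions nearly all of the gain lay on the lower side. The region on chromosome 11 from 83663214 to 83667597 measured 4384 bp treated and 839 bp untreated (5.23-fold), with 3276 bp of the gain below and 269 bp above. On chromosome 12, 91973978 to 91977738, a treated peak of 3761 bp faced one of 928 bp (4.05-fold), and the upper edges of the 2 peaks were 8 bp apart. Of these 4 regions, the last had an edge nearly in place, and in the other 3 the smaller shift was above the 159.5 bp median of all members.

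The other regions of this group grew at both ends to differing degrees. Chromosome 12, 57633798 to 57638021 (4224 against 846 bp, 4.99-fold), was the most even, with 1786 bp below and 1592 bp above. On the same chromosome, 59366667 to 59370645 (3979 against 769 bp, 5.17-fold) gained 2352 and 858 bp. In the remaining 4 regions the larger part was above the untreated peak. At chromosome 10, 97027825 to 97031172 (3348 against 732 bp), the shifts were 883 and 1733 bp. At chromosome 11, 33099521 to 33104524 (5004 against 1150 bp), they were 810 and 3044 bp. At chromosome 7, 152485700 to 152489356 (3657 against 867 bp), they were 931 and 1859 bp. The region at chromosome 16, 9992011 to 9996174 (4164 against 991 bp), had 1006 and 2167 bp. In all 10 regions the untreated peak lay within the treated one. The next treated H3K4me3 peak was 9.56 kb away at the chromosome 9 region, the closest of the 10, and 644 kb away at the last of the chromosome 12 regions, the farthest.

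**Figure D4:**
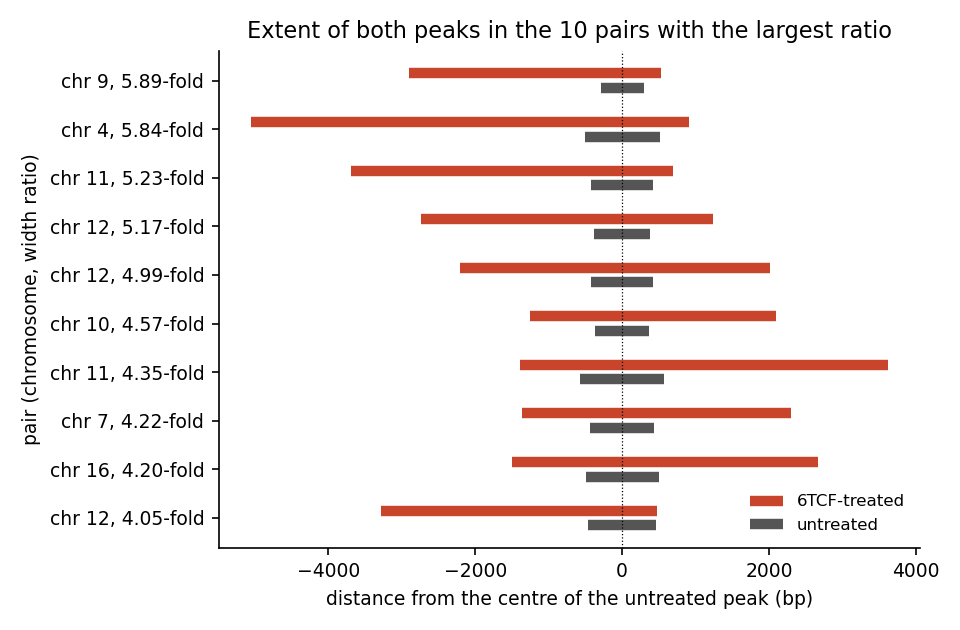
Extent of the treated and the untreated H3K4me3 peak in the 10 widened regions with the largest ratio, drawn to scale as distance from the centre of the untreated peak (horizontal, bp), 1 row per region. The untreated peak lies near an end of the treated one in the regions with ratios of 5.89, 5.84, 5.23 and 4.05, and close to its middle in the region with 4.99.

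The regions with the largest gain in bases were wide after treatment and grew mostly at 1 edge. At chromosome 3, 106838313 to 106845770, a treated peak of 7458 bp faced an untreated one of 1914 bp. This gain of 5544 bp, the largest of all 692, came from the upper edge, which shifted by 5577 bp, while the lower edge was 33 bp further in. The chromosome 4 region above followed with 4949 bp. At chromosome 14, 61660692 to 61666092, the gain was 3931 bp (5401 against 1470 bp), with 3663 bp of it below. At chromosome 2, 139501912 to 139508381, it was 3871 bp (6470 against 2599 bp), with 3348 bp above. At chromosome 9, 71737387 to 71744605, it was 3861 bp (7219 against 3358 bp), with a shift of 3796 bp below and 65 bp above. In treated cells 63 of the 692 regions were over 5000 bp wide. The 95th percentile of treated width was 5711 bp in the regions and 4659 bp over all pairs kept. The widest peak of the whole treated list was 9030 bp, and that of the untreated list 9151 bp.

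The threshold did not fall in a gap of the distribution. The 5 regions just inside it had ratios of 1.5 to 1.502. They were chromosome 6, 86447063 to 86448442 (1380 against 920 bp), chromosome 17, 56256559 to 56257385 (827 against 551 bp), chromosome 3, 55982277 to 55988583 (6307 against 4201 bp), chromosome 6, 113418946 to 113420400 (1455 against 969 bp), and chromosome 4, 136925885 to 136926836 (952 against 634 bp). The 5 pairs just outside it had ratios of 1.495 to 1.499. Their widths were 1805 against 1204 bp and 1668 against 1114 bp on chromosome 8, 918 against 613 bp on chromosome 2, 4858 against 3248 bp on chromosome 17, and 1491 against 997 bp on chromosome 13. The threshold therefore separates pairs that hardly differ.

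Widened regions lay near H3K4me3 peaks that were in the treated list only more often than other pairs did. Such a peak overlaps no untreated H3K4me3 peak, and 1 of the 1854 in the list lay within 10 kb of the part common to both members in 53 of 692 regions (7.66%, 5.90 to 9.88). The share was 2.82% (2.56 to 3.09) of the 14777 other pairs and 2.195% (1.16 to 4.12) of narrowed pairs. Peaks in the untreated list only were fewer, and 20 widened regions (2.89%, 1.88 to 4.42) had 1 within 10 kb, against 1.17% (1.01 to 1.36) of other pairs. The higher shares concern this short range. The median distance to the nearest treated-only peak was 304 kb for widened regions and 288 kb for other pairs, and to the nearest untreated-only peak 869 and 820 kb. These peaks come from the same pair of libraries as the rule, so the shares are a description. By mean width, the share with a treated-only neighbour was 8.39% (4.97 to 13.8) against 4.58% (3.53 to 5.93) in pairs of up to 1000 bp. It was 10.3% (7.10 to 14.8) against 3.55% (3.07 to 4.11) in pairs of over 1000 to 2000 bp, and 5.08% (3.11 to 8.22) against 2.15% (1.87 to 2.48) in wider pairs. In the narrowest class the intervals overlapped. For untreated-only neighbours the shares were 1.94% (0.660 to 5.54) against 2.04% (1.37 to 3.01) in the narrowest class, 3.72% (1.97 to 6.92) against 1.23% (0.960 to 1.58) in the middle class, and 2.71% (1.38 to 5.26) against 1.02% (0.827 to 1.25) in the widest. No excess was seen among pairs of up to 1000 bp.

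**Figure D5:**
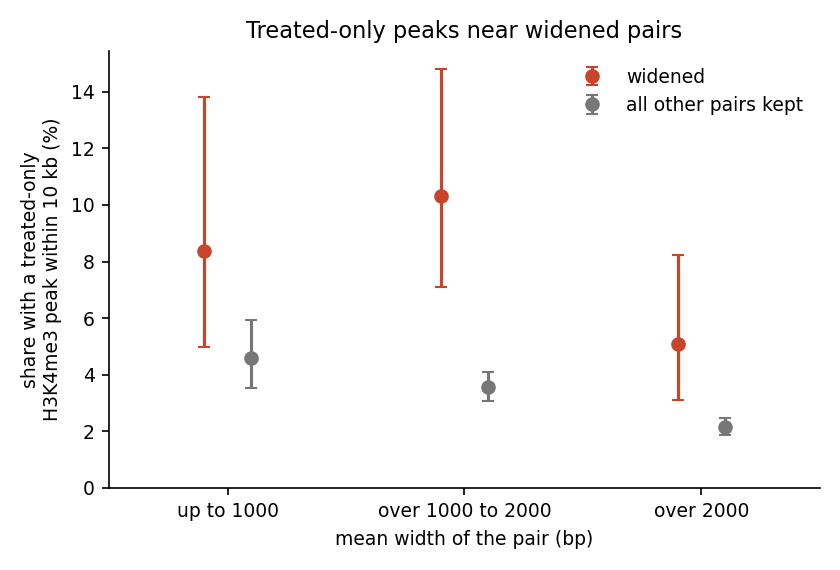
Share of pairs with a treated-only H3K4me3 peak within 10 kb (vertical, %) in 3 classes of the pair's mean width (horizontal, bp), for widened pairs and for all other pairs kept. Points are shares and bars are 95% Wilson intervals over pairs. Widened pairs stand higher in each class, and the intervals overlap in the class of up to 1000 bp.

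Pairs next to a widened region were also widened at a higher share than pairs at large. There were 159 neighbouring pairs within 10 kb of a widened region, counted from the common parts, and 24 of them (15.1%, 10.4 to 21.5) were widened, against the 4.47% of all pairs. These 24 make 12 couples. In some couples the treated peaks were only 58, 76 or 186 bp apart, less than the 600 bp shear length. Whether such a couple is 1 split peak was not tested. Only 4 of the 159 (2.52%, 0.983 to 6.29) were narrowed, close to the 2.65% of all pairs. Around narrowed pairs, 10 of 112 neighbours (8.93%, 4.92 to 15.7) were narrowed and 4 (3.57%) widened. The 10 make 5 couples. Each couple is counted from both sides, so these intervals and the following are too narrow. Among neighbours with a mean width of over 1500 bp, 13 of 86 (15.1%, 9.05 to 24.2) were widened, against 3.22% (2.92 to 3.56) of all pairs of that width. Among narrower neighbours it was 11 of 73 (15.1%, 8.63 to 25.002), against 8.38% (7.53 to 9.31), where the intervals overlapped.

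With a distance of up to 100 kb between treated peaks, 91 of the 692 regions fell into 44 groups of 2 and 1 group of 3. Groups were not counted for other pairs, and 86.1% of all pairs kept had another treated peak within 100 kb. No clustering is therefore read from the number of groups. The group of 3 was on chromosome 2. Its first member, 70311445 to 70316923, was 5479 bp wide when treated and 1847 bp when untreated (2.97-fold), with 3252 bp of the gain above. The second, 70398950 to 70402127, was 3178 against 1020 bp (3.12-fold), with shifts of 891 and 1267 bp. The third, 70405782 to 70407062, was 1281 against 822 bp (1.56-fold), and 3.65 kb separated it from the second. A treated-only H3K4me3 peak lay 17.0 kb from the common part of the first. The closest couple was on chromosome 1, where a treated peak at 89050160 to 89051796 (1637 against 939 bp) ended 58 bp before the next widened peak. On chromosome 9 the gap was 76 bp after a peak at 55387327 to 55392943 (5617 against 2543 bp). These 2 couples were singled out after their values were seen.

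Beyond such neighbours, the widened regions were somewhat more isolated. Another treated H3K4me3 peak lay within 10 kb of 189 regions (27.3%, 24.1 to 30.8), close to the 24.4% (23.8 to 25.1) of other pairs. Within 100 kb the share was 77.3% (74.0 to 80.3), below the 86.5% (85.9 to 87.0) of other pairs. In the untreated list, where the treated extension plays no part, the shares within 100 kb were 75% (71.6 to 78.1) and 85.7% (85.1 to 86.3). More widened regions thus stood alone in a stretch of 100 kb on either side. This lay in the wide regions: with a mean width of over 2000 bp, 193 of 295 (65.4%, 59.8 to 70.6) had an untreated neighbour within 100 kb, against 85.3% (84.6 to 86.1) of other pairs and 80.8% (75.5 to 85.1) of narrowed pairs of that width. At up to 1000 bp the share was 82.6% (75.8 to 87.7) against 83.3% (81.1 to 85.3), and at over 1000 to 2000 bp it was 81.8% (76.5 to 86.2) against 86.9% (85.97 to 87.85). In the 365 regions extended mostly at 1 edge, the nearest untreated H3K4me3 peak was a median of 95.2 kb away on the extended side and 74.9 kb on the other. It lay within 10 kb in 36 regions on the extended side and in 46 on the other. A pair may overlap no second untreated peak, so the rule keeps the extension itself clear. The cause of the difference in distance was not tested.

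Among the pairs kept, listed H3K27me3 peaks lay within 10 kb of widened regions about as often as of other pairs. An untreated H3K27me3 peak lay within 10 kb of 13 regions (1.88%, 1.10 to 3.19), against 1.94% (1.73 to 2.17) of other pairs, and a treated one within 10 kb of 9 (1.301%, 0.686 to 2.45), against 1.18% (1.02 to 1.37). The median distance to the nearest untreated H3K27me3 peak was 671 kb for widened regions and 529 kb for other pairs, and to the nearest treated one 1097 and 972 kb. For input peaks the shares within 10 kb were 0.578% (0.225 to 1.48) in treated and 0.289% (0.0793 to 1.05) in untreated cells, against 0.318% and 0.467% of other pairs. Overlap itself was removed by the rule. Of the 684 pairs so removed, 120 (17.5%) were widened and 6 narrowed, against 4.47% and 2.65% of the pairs kept. Widened pairs were thus more frequent among pairs that overlapped a listed H3K27me3 or input peak. An H3K27me3 peak was overlapped by 505 pairs in the untreated and 221 in the treated list, and an input peak by 111 and 93. The widened ones were not split by these. The mark may be present where no H3K27me3 peak was listed.

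Widened regions were found on all 19 autosomes and on chromosome X. Chromosome 14 had the highest share, with 34 of 513 pairs widened (6.63%, 4.78 to 9.12) and 6 narrowed (1.17%, 0.537 to 2.53). Chromosome X had the lowest, with 16 of 529 (3.02%, 1.87 to 4.86). The interval of chromosome 14 lay above the 4.47% of all pairs, and those of the other 18 autosomes and of chromosome X included it. Chromosome 14 was picked as the highest of all, and the intervals make no allowance for that. No enrichment is therefore read from it. Chromosome Y held 4 pairs, none of them widened.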

How the data were processed

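The authors deposited 1 peak list per library, with chromosome, start, end and a constant strand sign, so the values used here are positions in base pairs. Per the submitters' processing notes the tools were HOMER, MACS 1.4.3, Bowtie2 2.2.5 and CASAVA 1.7 and the build mm9, with no step assigned to any of them. How peaks were called, at what threshold and against what control is not given in the sources used here.

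Width was the third column minus the second of the deposited lists, read as BED, whose starts count from 0. Printed starts count from 1, so a width is the printed end minus the printed start plus 1. Peaks were paired by an overlap of at least 1 bp in Python 3.11.15 with numpy 2.4.6, pandas 2.3.3 and scipy 1.17.1. The overlaps were checked against bedtools 2.31.1, and the pairing was tested on simulated data. Distances to treated-only, untreated-only, H3K27me3 and input peaks were taken from the part common to both members, and those to other H3K4me3 peaks from the member's own edges. Intervals are 95% Wilson intervals over pairs, which are not replicates, and cover counting error only.

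The members, classes and named regions were chosen with earlier results of these data known. Regions named are the 10 largest ratios, the 5 largest gains, the 5 pairs on each side of the threshold and groups of members within 100 kb. The classes of mean width and the shares of treated-only and untreated-only neighbours were added after the lists had been explored. Genes, sequence and marker lists were not evaluated, because the reference tables are of another build.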

Additional observations from a re-analysis of the deposited data

How the results depend on the processing

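In all, 10 settings were tried for the number of widened (692) and narrowed (410) pairs. At a ratio of at least 2 there were 146 and 83, at 1.3 there were 1497 and 1012, and with both members at least 1000 bp wide there were 390 and 313. The other 7 settings moved neither number by 1.5 times: widened pairs stayed between 626 (treated widths mapped to the untreated distribution by rank, with 468 narrowed) and 812 (H3K27me3 and input overlaps kept, with 416 narrowed), and outnumbered narrowed pairs in each of the 10. The median gain of 944 bp became 1285 bp with rank mapping and 1502 bp with both members at least 1000 bp wide, and the median untreated width of 1132 bp became 1423.5 and 1844 bp. The share extended mostly at 1 edge, 52.7%, was 64.4% at a ratio of 2, 58.1% with rank mapping and 71.5% at 1000 bp. The share with the untreated peak inside the treated one, 86.1%, was 89.0% at a ratio of 2 and 81.0% at 1000 bp. The share with another treated peak within 10 kb, 27.3%, was 23.6% at 1000 bp. That with a treated-only peak, 7.66%, was 6.85% at a ratio of 2 and 5.38% at 1000 bp, in settings chosen after seeing the data. An overlap of at least 50% of the shorter peak changed no share or median. The cause of these moves was not tested. No paired analysis was possible because each group held 1 library. Depth is unknown, so no limit from it can be given.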
